A study of Mus musculus and Rattus norvegicus with 11 samples.

Results

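The genes described here are 35 genes of DNA replication and cell division, taken as a fixed list of symbols: Mki67, Top2a, Cdk1, Ccnb1, Ccnb2, Ccna2, Birc5, Ube2c, Cenpa, Cenpe, Cenpf, Tpx2, Aurka, Aurkb, Bub1, Bub1b, Cdc20, Plk1, Kif11, Kif20a, Kif23, Nusap1, Prc1, Tyms, Rrm1, Rrm2, Pcna, Mcm2, Mcm3, Mcm4, Mcm5, Mcm6, Mcm7, Gins2 and Stmn1. The mouse table of 31053 genes held all 35, each under a single identifier. The rat table of 32883 genes held 34, without Ccnb2. Values are given per annotated cell type and library group, together with the share of cells that carry at least 1 transcript of Mki67 or Top2a.

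A dividing cell copies its DNA in S phase and separates the copies in mitosis. Replication uses the helicase ring built from Mcm2, Mcm3, Mcm4, Mcm5, Mcm6 and Mcm7, its partner Gins2 and the sliding clamp Pcna, and Tyms, Rrm1 and Rrm2 supply the nucleotides. The mitotic genes are transcribed mostly later in the cycle: the kinase Cdk1 with its cyclins, the centromere and checkpoint proteins, the mitotic kinases, and the motors and bundlers of the spindle. Adult Schwann cells, fibroblasts and endothelial cells of an uninjured nerve divide rarely, whereas activated lymphocytes divide quickly. Stmn1, a tubulin-binding protein that destabilises microtubules, is used in mitosis and is also known as a protein of nerve cells outside the cycle.

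The single cells came from peripheral nerve: sciatic nerve and brachial plexus of C57BL/6 mice (3 libraries, numbered 1, 3 and 4), NOD control mice (3 libraries, 1, 2-1 and 2-2) and NOD mice whose label reads ICAM-1-1/-NOD (3 libraries), and sciatic nerve of naive Lewis rats (2 libraries). All 3 mouse groups are untreated as far as the labels state, both NOD groups share the autoimmunity-prone NOD background, and ages are not given in the labels. Mouse nerves were digested enzymatically, myelin was removed and living cells were sorted; rat nerve was purified over Percoll without sorting. Control libraries 2-1 and 2-2 share a number and were summed as NOD control 2, so the knockout comparison rests on 3 against 2 samples. The labels do not tie libraries to separate animals, so p-values measure only the spread between these libraries, which may be technical.

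Depth and labels bear on every value below. Median UMIs per barcode (UMIs are molecule tags) ran from 591 to 1530 in mouse libraries and were 2647 and 2670 in rat. Pairs of mouse libraries shared 0 to 15 barcodes, and the rat pair shared 59. Icam1, an adhesion molecule of leukocytes and endothelium, was counted at 246 to 259 UMIs per 1000000 UMIs of the library (CPM) in the libraries labelled Icam1 knockout, and at 44.1 to 94.5 CPM in NOD control. The labels do not say which part of the gene was deleted and a 3′ tag does not report on it, so this neither bears out nor contradicts the genotype. Deposited cell type names were checked against marker lists. T cell markers summed to 10891 CPM in CD4 and 10987 CPM in CD8 cells of the libraries labelled Icam1 knockout, B cell markers to 8750 CPM in BC, and Schwann markers to 9220 CPM in mySC. In NOD control these sums were 5916 CPM in CD4, 4963 CPM in CD8, 7150 CPM in BC and 25205 CPM in mySC. Fibroblast markers summed to 1815 CPM in CD4 and 1827 CPM in BC of NOD control, compared with 357 and 269 CPM with the knockout label. The part of these differences in the comparisons below was not tested. Cells named nmSC went against the name: Schwann markers summed to 158 to 421 CPM in the 3 mouse groups, against 67327 to 80473 CPM of fibroblast markers, and to 125 against 31620 CPM in rat. They are called by the deposited name only.

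The 35 genes lie on 16 mouse chromosomes, 7 of them on chromosome 2, and all are annotated as protein-coding. Members known for transcription late in the cycle share a promoter element with the letters CCAAT, bound by NF-Y, and often the letters TTTGAA (CHR), bound by repressors outside of the cycle. Replication genes often carry E2F sites. RefSeq upstream windows (build GRCm38.p6, 250 bases) were found for 28 of the 35. The sequences below show 3 mitotic and 2 replication genes: Birc5 and Mcm5, which passed the test between NOD groups, Top2a, which marks the cells counted below, Mcm6, with the most E2F matches, and Ccnb2 as an example of a mitotic cyclin. They are Top2a (chr11:99024190-99024439, minus strand), Ccnb2 (chr9:70421555-70421804, minus), Birc5 (chr11:117848987-117849236, plus), Mcm5 (chr8:75109259-75109508, plus) and Mcm6 (chr1:128359706-128359955, minus). Each is written 5′ to 3′ along the gene's strand, and capitals mark the letters CCAAT, the CHR letters or an E2F match on either strand.
Top2a: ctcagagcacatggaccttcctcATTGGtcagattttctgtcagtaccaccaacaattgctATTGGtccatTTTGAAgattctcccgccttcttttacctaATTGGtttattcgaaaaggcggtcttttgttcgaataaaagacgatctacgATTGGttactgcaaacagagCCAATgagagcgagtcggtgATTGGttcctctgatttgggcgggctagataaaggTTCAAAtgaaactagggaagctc
Ccnb2: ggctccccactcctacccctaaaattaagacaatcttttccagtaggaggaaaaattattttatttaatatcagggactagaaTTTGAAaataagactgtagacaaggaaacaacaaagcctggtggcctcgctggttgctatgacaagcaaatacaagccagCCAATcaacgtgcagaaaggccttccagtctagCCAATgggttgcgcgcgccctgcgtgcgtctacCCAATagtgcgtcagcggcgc
Birc5: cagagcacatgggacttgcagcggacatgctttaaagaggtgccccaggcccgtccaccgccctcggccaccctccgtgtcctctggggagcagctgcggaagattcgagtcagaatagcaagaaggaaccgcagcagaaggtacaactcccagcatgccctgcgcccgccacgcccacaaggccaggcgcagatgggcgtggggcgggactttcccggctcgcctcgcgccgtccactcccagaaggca
Mcm5: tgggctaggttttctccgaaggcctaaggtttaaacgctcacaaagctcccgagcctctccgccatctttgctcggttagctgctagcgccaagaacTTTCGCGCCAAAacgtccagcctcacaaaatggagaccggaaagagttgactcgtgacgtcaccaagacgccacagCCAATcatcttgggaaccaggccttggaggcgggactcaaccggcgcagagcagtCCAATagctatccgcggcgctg
Mcm6: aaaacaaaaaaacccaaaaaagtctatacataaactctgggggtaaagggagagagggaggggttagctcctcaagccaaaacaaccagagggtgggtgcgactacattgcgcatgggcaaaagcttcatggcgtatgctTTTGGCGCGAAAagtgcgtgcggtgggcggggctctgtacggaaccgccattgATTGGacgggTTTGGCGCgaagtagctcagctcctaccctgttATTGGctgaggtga

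Top2a, which untangles DNA before chromosomes part, had 6 CCAAT and 2 CHR matches in this window, and Ccnb2, a mitotic cyclin, had 3 and 1. Birc5, the passenger protein survivin, had none of the 3 elements. Mcm5 and Mcm6 had 2 CCAAT matches each, and 2 and 3 E2F matches. The 2 E2F matches of Mcm5 share letters, as do 2 of the 3 of Mcm6, since a site read on both strands counts for each. Over the matched members, CCAAT was present in 25 of 28 windows (89.3%), compared with 33.8% of all 32851 windows, and at least 2 copies were present in 16 of 28 (57.1%), compared with 10.1%. The 2 roles were alike, with CCAAT in 17 of 19 mitotic (89.5%) and 8 of 9 replication and nucleotide windows (88.9%). TTTGAA was present in 7 of 19 mitotic windows (36.8%) and 1 of 9 replication and nucleotide windows (11.1%), with 16% over all windows. E2F matches (the letters TTTCCCGC, and also TTTCGCGC, and also TTTGCCGC, and also TTTGGCGC, on either strand) were present in 1 of 19 mitotic windows (5.26%) and 3 of 9 replication and nucleotide windows (33.3%), with 1.86% over all windows. These are letter matches, not measured binding. The genes also differ in how cleanly a tag can be assigned to them. In the annotation, 8 overlap a gene on the other strand (Ccna2, Ube2c, Cdc20, Kif20a, Nusap1, Prc1, Mcm7 and Gins2), and 5 have annotated copies elsewhere (Ccnb1, Ccnb2, Tyms, Pcna and Stmn1). The labels do not say whether counting used the strand, and whether reads were misassigned was not tested.

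Cells with proliferation transcripts were few and most were leukocytes. A UMI of Mki67, the antigen of the standard proliferation stain, or of Top2a was found in 116 of 5127 annotated cells of the libraries labelled Icam1 knockout, in 20 of 5347 NOD control cells, in 20 of 5198 C57BL/6 cells and in 61 of 12360 rat cells. Lymphoid cells (BC, TC, CD4 and CD8) were 4442 of these 5127 cells, 1233 of the 5347, 493 of the 5198 and 1228 of the 12360. The totals are not adjusted for this make-up. Of the 116, 51 were CD8, 47 were CD4 and 11 were BC. In C57BL/6, 8 of the 20 were TC and 5 were MP, and in NOD control 7 were BC, 6 were CD4 and 4 were CD8. In rat, 17 of 61 were MHC II APC and 15 were PF4 MC, the 2 myeloid types.

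Among cell types with at least 50 cells, the highest share was that of CD8 in the libraries labelled Icam1 knockout, with 51 of 1294 cells (3.94%, exact binomial 95% interval 2.95 to 5.15%). C57BL/6 TC followed with 8 of 333 (2.40%, 1.04 to 4.68%), then CD4 with the knockout label with 47 of 2041 (2.30%, 1.70 to 3.05%), C57BL/6 MP with 5 of 228 (2.19%, 0.716 to 5.04%) and rat MHC II APC with 17 of 798 (2.13%, 1.25 to 3.39%). The intervals of these 5 overlap and cover counting error only. NOD control CD8 had 4 of 48 cells, too few for this order. As the type that should lack the transcripts, mySC, the myelinating Schwann cells, had 1 of 405 (0.247%) in C57BL/6 and 1 of 760 (0.132%) in NOD control, but 2 of 124 (1.61%, 0.196 to 5.70%) with the knockout label. Rat nmSC had 11 of 3916 (0.281%). NOD control nmSC had 0 of 2203, which allows a share of up to 0.136% by the limit of 3 counts (exact interval to 0.167%). Depth differed between these types, with median UMIs of 1138.5 in CD8 and 855 in CD4 of the libraries labelled Icam1 knockout, 912 in C57BL/6 TC, 1649 in MP, 3144 in rat MHC II APC and, for mySC, 1235.5 with the knockout label, 763 in C57BL/6 and 597.5 in NOD control. Thinning left out cells under 500 UMIs and brought each other cell to 500 UMIs. The shares were then 1.69% in CD8 and 1.26% in CD4 of the libraries labelled Icam1 knockout. They were 0.877% in TC, 0.791% in MP, 0.343% in rat MHC II APC and 1.93% in NOD control CD8 (38 cells). In mySC the thinned shares were 0.186% with the knockout label, 0.168% in NOD control and 0.181% in C57BL/6. They rest on 120 of 124, 537 of 760 and 384 of 405 cells.

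The share varied between libraries of a group. In CD8 of the libraries labelled Icam1 knockout it was 3.56%, 3.59% and 4.62% in libraries 1, 2 and 3, and in CD4 it was 1.68%, 1.82% and 3.28%. In C57BL/6 TC it was 0.901% in library 1, 4.95% in library 3 and 1.65% in library 4, so library 3 gave 5 of the 8 cells. C57BL/6 MP had 2.47%, 2.65% and 0% (0 of 34 cells in library 4). Rat MHC II APC had 1.67% and 2.64%, and rat PF4 MC had 0.426% and 0.890%.

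A single UMI is a weak mark, so cells with at least 3 of the 23 mitotic members were counted too. There were 42 in the libraries labelled Icam1 knockout, 16 in NOD control, 15 in C57BL/6 and 50 in rat, again not adjusted for cell make-up. With the knockout label they were 22 CD8, 15 CD4, 3 mySC and 2 MC cells, and 0 of 1107 BC. In NOD control they were 6 CD4, 5 CD8 and 5 BC cells, and in C57BL/6 7 MP, 5 TC, 2 fibro and 1 nmSC. The 5 CD8 cells were 10.4% of the 48 CD8 cells of NOD control, compared with 1.70% of 1294 with the knockout label. In rat, 19 were MHC II APC and 14 PF4 MC. Only 27 of the 116 cells with an Mki67 or Top2a UMI in the libraries labelled Icam1 knockout passed this rule, compared with 8 of 20 in NOD control, 10 of 20 in C57BL/6 and 36 of 61 in rat. BC showed the gap most plainly: 9 of the 11 marked BC cells with the knockout label had no UMI of any other member, compared with 3 of the 7 in NOD control.

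**Figure D1:**
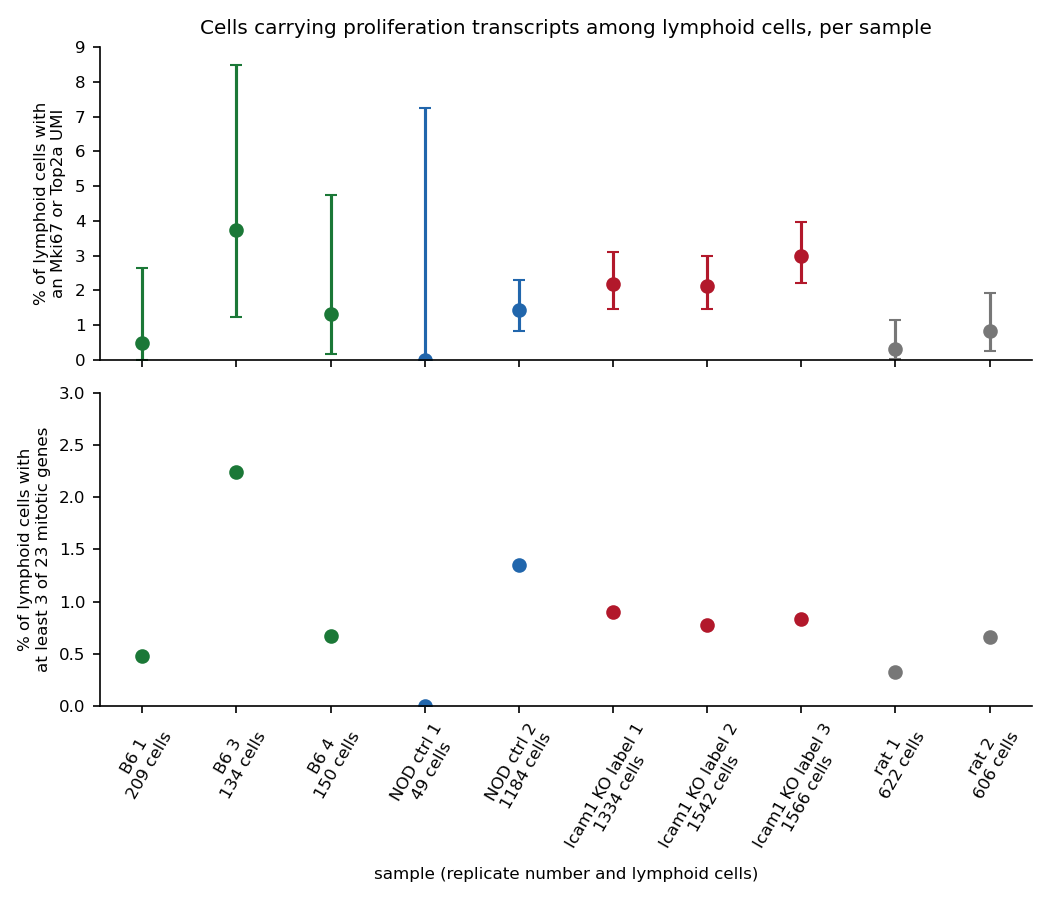
Percent of lymphoid cells (BC, TC, CD4 and CD8) per sample with an Mki67 or Top2a UMI (upper panel, bars are exact binomial 95% intervals) and with at least 3 of 23 mitotic genes (lower panel). In the upper panel the samples labelled Icam1 knockout (2.14 to 3.00%) lie above both NOD control samples (0 and 1.44%), and in the lower panel NOD control 2 (1.35%) lies above all 3 of them (0.778 to 0.900%).

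Whether lymphoid cells carried these transcripts more often with the knockout label was compared over samples. The share of BC, CD4 and CD8 cells with an Mki67 or Top2a UMI was 2.17%, 2.14% and 3.00% in the libraries labelled Icam1 knockout, and 0% of 49 cells (up to 6.12% by the limit of 3 counts, exact interval to 7.25%) and 1.44% of 1184 cells in NOD control 1 and 2. The groups did not overlap. The means were 2.44% ± 0.488 (SD, n = 3) and 0.718% ± 1.02 (SD, n = 2), and the difference of 1.72 percentage points gave p = 0.1 in an exact two-sided permutation test, the smallest p that 3 against 2 samples allow. CD8, with the highest share among types with at least 50 cells, made up 28.9 to 29.5% of lymphoid cells with the knockout label and 6.12% and 3.801% in NOD control 1 and 2. Its part in the difference was not tested. By the stricter count of at least 3 mitotic members the shares were 0.900%, 0.778% and 0.830% against 0% and 1.35%, with means of 0.836% and 0.676% (exact permutation p = 0.7). Control libraries 2-1 and 2-2 alone had 0.842% and 2.03% by the first count, which brackets the mean of NOD control 2. In CD4 the share was 1.68%, 1.82% and 3.28% against 0% of 39 cells and 1.42% of 423 (difference of means 1.55 percentage points, exact permutation p = 0.1). With libraries 2-1 and 2-2 apart (0.488% and 2.29% in CD4) the CD4 groups overlapped (exact permutation p = 0.3). By at least 3 mitotic members the CD4 means were 0.742% and 0.709% (exact permutation p = 1). After thinning to 500 UMIs the exact permutation p was 0.1 in lymphoid cells and 0.2 in CD4. Cells under 500 UMIs were left out, which kept 29 of 49 and 915 of 1184 lymphoid cells in NOD control 1 and 2. With the knockout label 1334 of 1334, 1532 of 1542 and 1528 of 1566 were kept. Myeloid cells (MC and pDC) had 3.90%, 0% and 1.11% against 0% and 0.649%, which overlap (exact permutation p = 0.7).

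**Figure D2:**
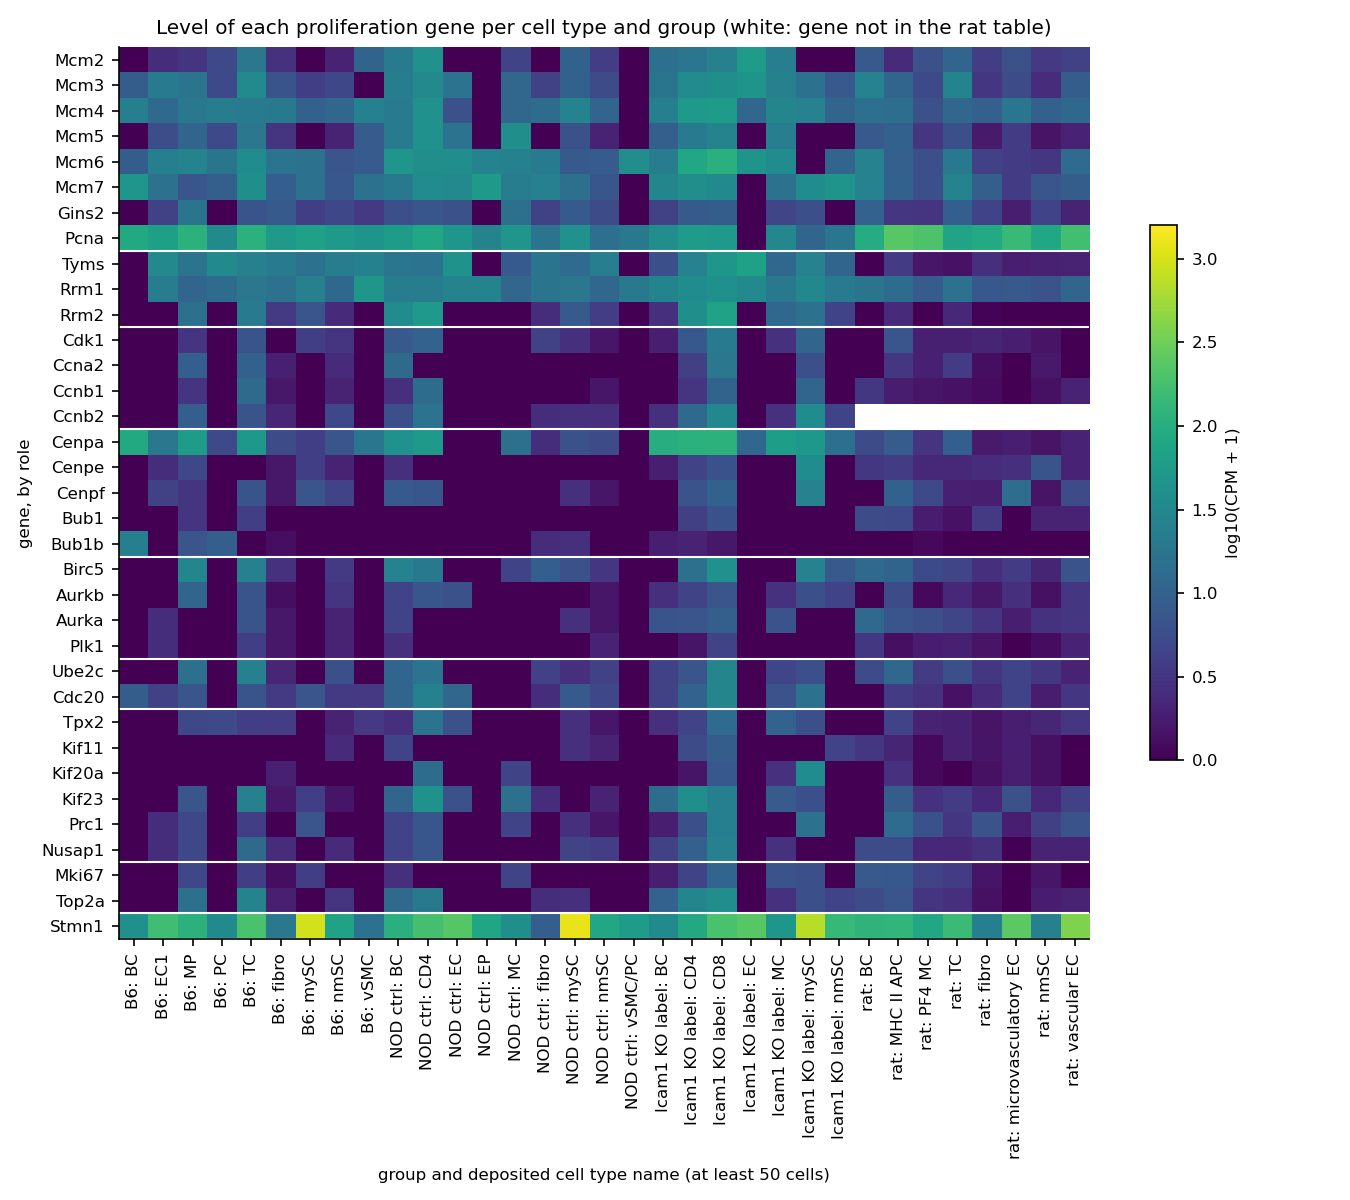
Level of each gene as log10(CPM + 1) for every group and deposited cell type with at least 50 cells, with genes ordered by role. Among these types the 23 mitotic genes sum highest in CD8 with the knockout label (464.5 CPM), and the brightest Stmn1 squares are the mySC of the 3 mouse groups (714 to 1238 CPM). NOD control CD8, with 48 cells and a higher mitotic level, is not shown.

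Levels summed over the 23 mitotic members were 464.5 CPM in CD8, 289.5 CPM in mySC and 276 CPM in CD4 of the libraries labelled Icam1 knockout, 263 CPM in NOD control CD4, 228.5 CPM in C57BL/6 TC and 184 CPM in MP, compared with 22.8 CPM in C57BL/6 fibro and 39.5 CPM in nmSC. The mySC value rests on 58 UMIs, of which 18, 23 and 7 lay in 3 of the 124 cells. NOD control CD8, with 48 cells, was left out of this order but was higher. There the mitotic members other than Mki67 and Top2a summed to 780 CPM in 44 cells without a UMI of these 2. They summed to 5320 CPM in the 4 cells with one. In CD8 with the knockout label the same sums were 205 CPM in 1243 cells and 3855 CPM in 51 cells. The 11 replication and nucleotide members differed less between types, with 502 CPM in CD8 and 404 CPM in CD4 with the knockout label, 399 CPM in NOD control CD4, 337 CPM in TC, and still 146 CPM in C57BL/6 fibro and 119 CPM in nmSC. In rat, MHC II APC had 110 CPM of mitotic and 300 CPM of replication transcripts, and fibro had 26.9 and 127 CPM. Pcna alone made up 50.8 CPM of the replication transcripts of C57BL/6 fibro and 53.0 CPM of those of nmSC.

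Single members departed from this order. Cenpa, the centromere histone, was at 109 CPM in CD4 and 111 CPM in CD8 with the knockout label, and at 97 CPM in BC, the type with 0 cells holding 3 mitotic members. Stmn1 was highest in mySC, at 969 CPM in C57BL/6, 1238 CPM in NOD control and 714 CPM with the knockout label, where mitotic transcripts summed to 32.4, 38.7 and 289.5 CPM. Endothelial cells held Stmn1 beside a low mitotic sum: 166 and 32.9 CPM in EC1 of C57BL/6, 224 and 26.1 CPM in EC of NOD control, and 377 and 36.5 CPM in vascular EC of rat. In rat myeloid cells Pcna was at 230 CPM in MHC II APC and 202 CPM in PF4 MC, above its level in the other rat types of at least 50 cells.

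Dividing nerve cells were rare, and each can be described. Among types that are not leukocytes, 16 cells held at least 3 mitotic members: 3 in C57BL/6, 3 in the libraries labelled Icam1 knockout, 10 in rat and 0 in NOD control. The C57BL/6 nmSC cell held 16 mitotic members with 51 UMIs, beside 93 UMIs of fibroblast markers and 0 of Schwann markers. One of the 2 fibro cells of C57BL/6 held 14 mitotic members, among them Top2a, Ccnb1, Aurka and Kif20a. The 3 mySC cells with the knockout label held 9, 8 and 4 mitotic members beside 21, 19 and 13 UMIs of Schwann markers and 0, 1 and 6 UMIs of T cell markers, so they carried Schwann transcripts, and the third also T cell transcripts. These 3 cells also held 1, 14 and 6 UMIs of fibroblast markers. Their totals of 4208, 5139 and 3969 UMIs lay above the median of their type, 1235.5. In rat these cells were 5 fibro (7 to 15 mitotic members), 3 nmSC (3 to 12) and 2 microvasculatory EC (3 and 10), of which the second held 139 UMIs of myeloid markers, 15 of fibroblast and 2 of endothelial ones. The first held 29 UMIs of fibroblast and 11 of myeloid markers, beside 4 of endothelial ones. A pair of cells captured together was not told apart from a single dividing cell.

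**Figure D3:**
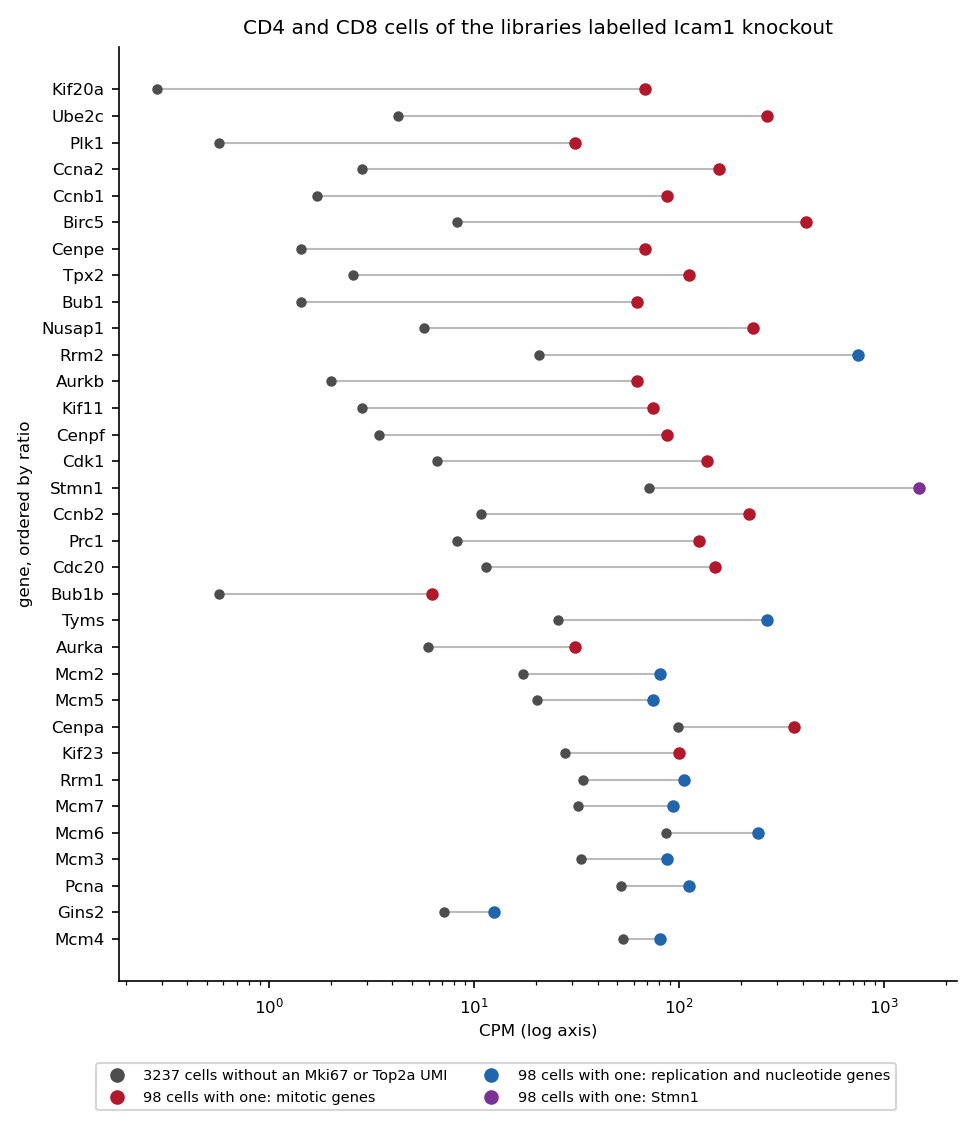
CPM (log axis) of each other member in the 98 CD4 and CD8 cells with an Mki67 or Top2a UMI (coloured) and the 3237 without (grey), in the libraries labelled Icam1 knockout. All 33 genes lie to the right in the cells with such a UMI, by 1.52 times for Mcm4 and over 10 times for 21 genes.

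What else the marked cells held was described in CD4 and CD8 of the libraries labelled Icam1 knockout. In CD8, NK cell markers summed to 9910 CPM in marked and 9796 CPM in unmarked cells, beside 12367 and 10901 CPM of T cell markers. T and NK cells were not told apart. The 98 cells with an Mki67 or Top2a UMI had 2851 CPM of mitotic members, 1898 CPM of replication and nucleotide members and 1475 CPM of Stmn1, compared with 207, 382 and 71.0 CPM in the 3237 others. Median depth was 1215 and 952 UMIs. The cells were chosen by 2 of the genes, so this is a description with no test. All 33 other members were higher in the marked cells, 18 of 21 mitotic members by over 10 times (median 31.2) and 2 of 11 replication and nucleotide members (median 2.92). Ube2c, which feeds the anaphase ubiquitin ligase, was at 268 against 4.28 CPM, Ccna2, the S-phase and mitotic cyclin, at 156 against 2.85 CPM, and Birc5 at 417 against 8.27 CPM. Rrm2, the regulated subunit of ribonucleotide reductase, was at 741 against 20.8 CPM, and Tyms, thymidylate synthase, at 268 against 25.7 CPM. Rrm1, the other reductase subunit, was at 106 against 34.0 CPM, Pcna at 112 against 52.2 CPM, and Mcm4 at 80.9 against 53.1 CPM. Cenpa (361 against 98.4 CPM) and Kif23, a midzone motor (99.6 against 27.7 CPM), were the mitotic members with the smallest ratios, 3.67 and 3.60. Cenpa was detected in 8.84% of the unmarked cells and Kif23 in 2.78%, and each other mitotic member in at most 0.803%. Kif23 lies 1363 bases from Rplp1, a ribosomal protein gene on the same strand. Of the 98 marked cells, 46 held no other member.

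By role, the other members of these CD4 and CD8 cells were as follows. Cdk1, the mitotic kinase, was at 137 CPM in the marked and 6.56 CPM in the unmarked cells, and its cyclins Ccnb1 and Ccnb2 were at 87.1 against 1.71 CPM and 218 against 10.8 CPM. At the kinetochore, the motor Cenpe was at 68.5 against 1.43 CPM, Cenpf at 87.1 against 3.42 CPM, and the checkpoint kinase Bub1 at 62.2 against 1.43 CPM. Of the mitotic kinases, Aurkb, the partner of Birc5, was at 62.2 against 2.00 CPM, and Aurka, the centrosomal one, at 31.1 against 5.99 CPM, a smaller ratio of 5.19. The spindle genes Tpx2 (112 against 2.57 CPM), Kif11 (74.7 against 2.85 CPM), Nusap1 (230.3 against 5.71 CPM) and Prc1, the midzone bundler (124.5 against 8.27 CPM), were all over 10 times higher. Cdc20 was at 149 against 11.4 CPM. Bub1b, Plk1 and Kif20a rested on 1 to 11 UMIs in the marked and 1 or 2 in the unmarked cells, so no single ratio is given, although they are 3 of the 18 counted above as over 10 times higher. The helicase subunits lay closer together: Mcm2 was at 80.9 against 17.4 CPM, Mcm3 at 87.1 against 33.1 CPM, Mcm5 at 74.7 against 20.3 CPM, Mcm6 at 242.7 against 86.7 CPM and Mcm7 at 93.4 against 31.95 CPM. Gins2 had 2 UMIs in the marked cells.

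Rat myeloid cells (MHC II APC and PF4 MC) gave a second description of the same kind, with 32 marked and 3064 unmarked cells. Stmn1 was at 1753 against 61.3 CPM, Cenpf at 200.1 against 1.62 CPM, Birc5 at 182 against 2.37 CPM and Ube2c at 169.8 against 2.12 CPM. Mcm5 was at 103 against 2.37 CPM, while Pcna was at 369.9 against 207.8 CPM (61 and 1664 UMIs). Rrm2 and Tyms, among the abundant members of the mouse CD4 and CD8 cells, had 3 and 2 UMIs in the marked rat cells. Of the 32 cells, 2 held no other member, and the median depth was 4645.5 UMIs in marked and 2337 in unmarked cells.

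The levels of the members were then compared with NOD control for the libraries labelled Icam1 knockout, using edgeR's quasi-likelihood test on summed counts, with Benjamini-Hochberg adjustment over all genes. In lymphoid cells 25 members passed the filter on low counts and 4 passed the threshold, 1 higher and 3 lower, where 19.4% of the 8999 genes tested passed (10.5% higher and 8.86% lower). The members' share is close to that background. Groups did not overlap for 6 of 25 members, against 43.3% of all genes. The median log2 change of the tested members was -0.26, with -0.43 for the 13 mitotic and -0.07 for the 11 replication and nucleotide members, and 0.03 for all genes. The 10 members that did not pass the filter were Mki67, Ccnb1, Cenpe, Aurka, Aurkb, Bub1, Bub1b, Plk1, Kif11 and Kif20a.

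Cenpa rose with the knockout label. It was at 109.5, 110.6 and 99.7 CPM in lymphoid cells of libraries 1, 2 and 3, and at 0 and 53.2 CPM in NOD control 1 and 2 (log2 change 0.83 ± 0.24 SE, edgeR adjusted p = 0.00711). All 3 lay above both controls, but the 0 of NOD control 1 comes from 28549 lymphoid UMIs. By the limit of 3 counts that 0 allows a level within the range of these libraries, so the separation rests on NOD control 2. Without BC, whose share of lymphoid cells was 24.2 to 26.0% with the knockout label and 14.3% and 60.5% in the controls, the change was 0.54 (edgeR adjusted p = 0.33). It did not pass without NOD control 2 either (adjusted p = 0.0934), where the control left held no Cenpa UMI and the fitted size depends on the prior count. In CD4 alone Cenpa was at 115.0, 101.6 and 109.3 CPM against 0 and 56.1 CPM (0.89 ± 0.40, adjusted p = 0.142), and in myeloid cells at 65.1, 75.5 and 38.0 CPM against 11.2 and 19.6 CPM (1.62 ± 0.63, adjusted p = 0.0912). It was higher in every library with the label in each of these sets, and passed the threshold in the first only. Groups did not overlap for 43.3% of all genes in lymphoid cells, 43% in CD4 and 1656 of 3514 genes in myeloid cells. The 0 of NOD control 1 in CD4 rests on 20356 UMIs.

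Birc5, Mcm5 and Stmn1 were called lower, a call that follows NOD control 2. Birc5 was at 22.1, 11.1 and 26.2 CPM with the knockout label and at 0 and 41.5 CPM in NOD control 1 and 2 (log2 change -1.24 ± 0.35, edgeR adjusted p = 0.00457). Mcm5 was at 22.1, 18.4 and 16.4 CPM against 0 and 34.0 CPM (-1.005 ± 0.37, adjusted p = 0.0364). Stmn1 was at 110.1, 94.0 and 120.7 CPM against 35 CPM, a single UMI, and 162.7 CPM (-0.75 ± 0.19, adjusted p = 0.00139). For all 3 the libraries with the label lay between the 2 controls, below NOD control 2 and above NOD control 1. With both controls weighted equally, the plain means were 19.8 against 20.7 CPM for Birc5, but 18.98 against 17.0 CPM for Mcm5 and 108 against 98.9 CPM for Stmn1, higher with the label. NOD control 1 held 49 lymphoid cells with 28549 UMIs and NOD control 2 held 1184 with 940239, so these calls rest on NOD control 2. In CD4 and CD8 cells without BC all 3 kept a negative log2 change past the threshold, -1.39 for Birc5, -1.34 for Mcm5 and -0.97 for Stmn1 (edgeR adjusted p = 0.0107, 0.0276 and 6.88e-04). Without NOD control 2 the only control left held no UMI of Birc5 or Mcm5 and 1 of Stmn1, so the sign turned positive by construction, and no member passed. Without library 2 of the knockout label, Birc5 (-0.96, adjusted p = 0.0552) and Mcm5 (-0.98, 0.0798) no longer passed, and Mcm5 did not pass without library 3 either (-0.91, 0.123). DESeq2 called 0 members, as did the fit with the replicate number as a block. The block fit kept only numbers found in both groups, so it left out library 3 of the knockout label and had less power.

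Top2a was at 22.7, 24.0 and 33.5 CPM with the knockout label and at 0 and 18.1 CPM in NOD control, which do not overlap, yet the change of 0.37 ± 0.42 did not pass (edgeR adjusted p = 0.598). Its 0 in NOD control 1, among 28549 UMIs, allows by the limit of 3 counts a level above all 3 of these libraries. Mki67 was at 5.82, 3.07 and 6.55 CPM against 0 and 1.06 CPM and was not tested. Pcna was at 41.3, 49.1 and 61.7 CPM against 70.1 and 65.9 CPM (-0.61 ± 0.26, adjusted p = 0.076), lower in each library with the label than in either control. Mcm2, a helicase subunit, was at 15.7, 18.4 and 22.3 CPM against 0 and 30.8 CPM (adjusted p = 0.082). Cdc20, the activator of the anaphase ligase, was at 17.5, 11.1 and 13.1 CPM against 0 and 24.5 CPM (adjusted p = 0.0893). Of the cyclins, Ccna2 changed by -1.21 ± 0.55 and Ccnb2 by -0.84 ± 0.42 (adjusted p = 0.113 and 0.153). Mcm6 was at 87.3, 83.5 and 54.4 CPM against 35 and 44.7 CPM (0.54 ± 0.27, adjusted p = 0.156).

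**Figure D4:**
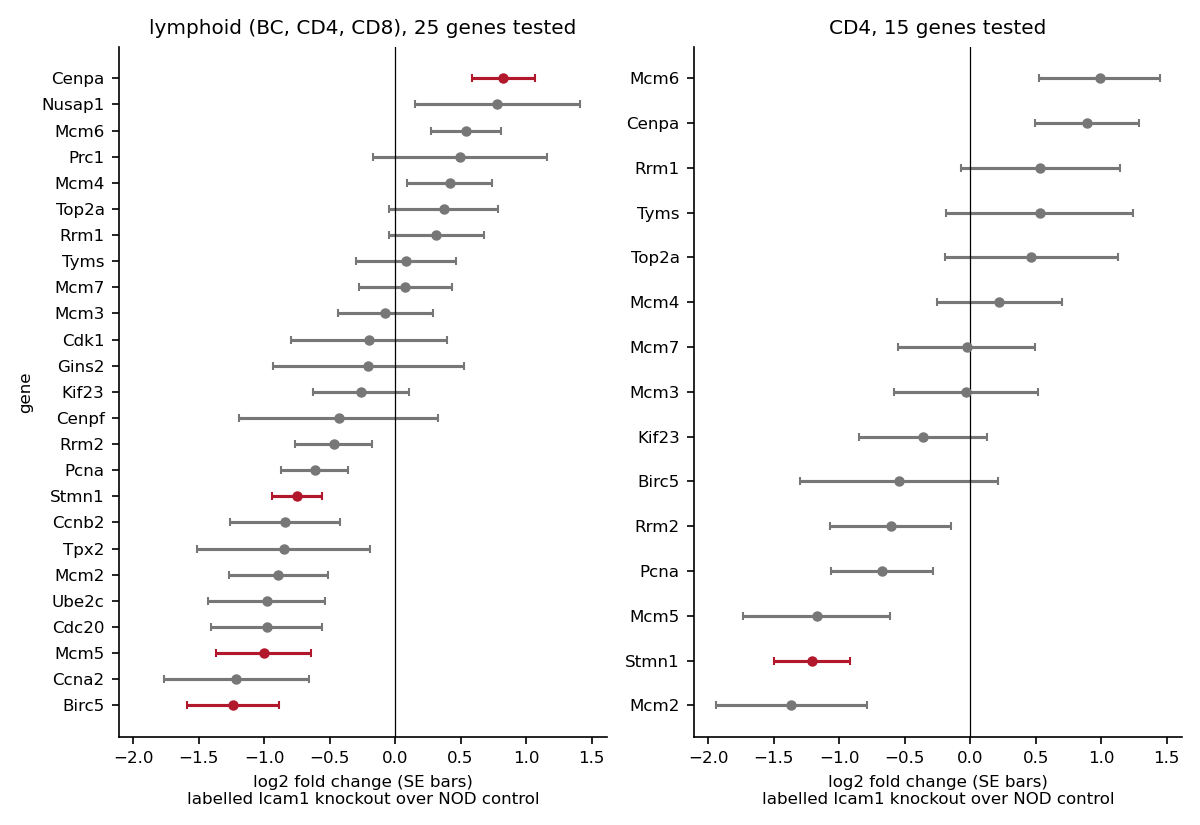
Fitted log2 change with its SE for each tested member in lymphoid cells (left) and CD4 cells (right), positive where the libraries labelled Icam1 knockout were higher than NOD control, with red for adjusted p under 0.05. Red in lymphoid cells are Cenpa (0.83), Stmn1 (-0.75), Mcm5 (-1.005) and Birc5 (-1.24), and in CD4 cells Stmn1 (-1.21).

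In CD4 cells 15 members were tested and 1 passed, lower, where 10.8% of 6866 genes passed (6.67% higher and 4.17% lower). Groups did not overlap for 3 of the 15 (Cenpa, Mcm6 and Pcna), against 43% of all genes. Stmn1 was at 103.5, 56.1 and 95.3 CPM with the knockout label against 49.1 CPM, a single UMI, and 188.1 CPM in NOD control (-1.21 ± 0.29, edgeR adjusted p = 8.68e-04). The libraries with the label again lay between the controls, and Stmn1 did not pass without NOD control 2 (adjusted p = 0.583), against a single UMI. In mySC, Stmn1 was at 1018, 571 and 480.5 CPM against 611 and 1253 CPM (-0.86 ± 0.33, adjusted p = 0.105). It was the only member tested there, where 11.4% of 1711 genes passed (5.61% higher and 5.79% lower). Leaving out library 1 of the knockout label or NOD control 1 each brought it past the threshold. In nmSC it was at 111.4, 157.5 and 148.4 CPM against 63.9 and 91.6 CPM (0.81 ± 0.32, adjusted p = 0.18), where 3.9% of 2101 genes passed (2.38% higher and 1.52% lower), and it passed without NOD control 2. In both types its unadjusted p was under 0.05, and DESeq2 did not call it. Whether the changes in mySC and nmSC differ was not tested. In myeloid cells, where 16.4% of 3514 genes passed (8.11% higher and 8.28% lower), edgeR called 0 of the 2 members tested (1 at an unadjusted p under 0.05), as did DESeq2. Without library 3 of the knockout label it called 1, Cenpa. In EC, where 2.6% of 538 genes passed, no member passed the filter.

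The NOD and C57BL/6 strains were compared in the same way. In nmSC 3 members were tested and 1 fell, with 2.28% of 7691 genes past the threshold (0.897% lower). Pcna was at 22.6, 55.6 and 45.3 CPM in C57BL/6 libraries 1, 3 and 4 and at 6.27 and 19.9 CPM in NOD control 1 and 2 (log2 change -1.96 ± 0.49, edgeR adjusted p = 0.0377). All 3 C57BL/6 values lay above both NOD control values, and groups did not overlap for 25.7% of all genes. The call did not hold without C57BL/6 library 3 (-1.35, adjusted p = 0.706), without library 4 (-1.98, 0.0762), without NOD control 1 (-1.42, 0.312) or with DESeq2 (-1.87, 0.442). In fibro, where 1.82% of 4780 genes passed (0.879% lower), Pcna was at 19.5, 54.0 and 66.5 CPM against 15.2 and 16.4 CPM (-1.68 ± 0.53, adjusted p = 0.174). In lymphoid and myeloid cells Pcna overlapped, with 19.1, 164.7 and 120.9 CPM against 70.1 and 65.9 CPM in lymphoid and 40.3, 154.8 and 79.9 CPM against 89.7 and 29.3 CPM in myeloid cells. Stmn1 was tested in nmSC, EC, lymphoid and myeloid cells and did not pass (adjusted p from 0.679 to 1), and Tyms in nmSC did not (0.971). Outside nmSC edgeR and DESeq2 called 0 members in the strain comparison, where 1.79% of lymphoid, 1.3% of myeloid and 1.96% of EC genes passed (1.05% lower in EC), and 1 member, Pcna in fibro, had an unadjusted p under 0.05.

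**Figure D5:**
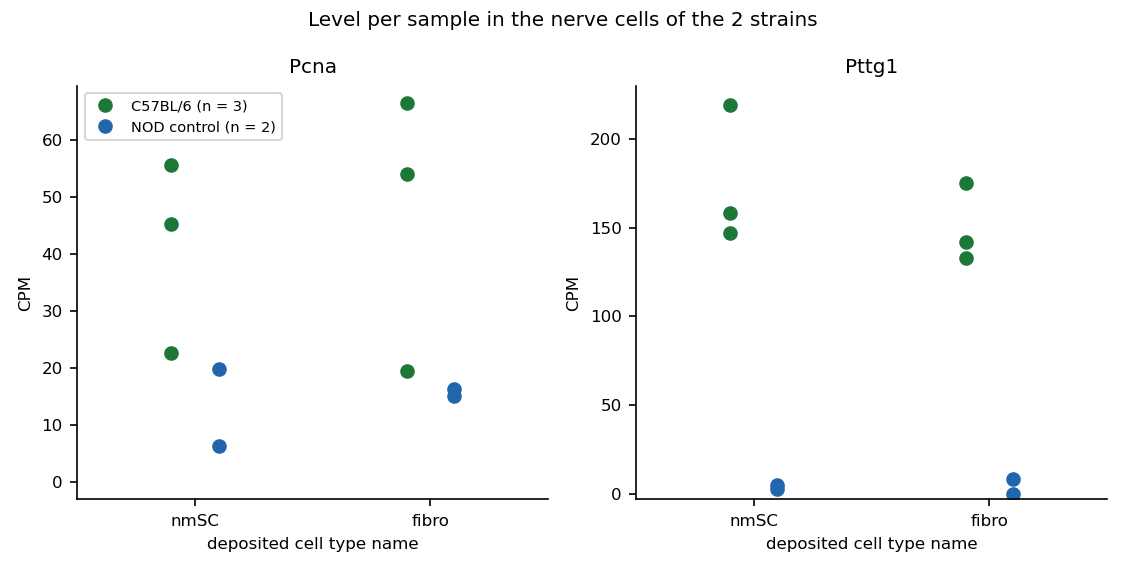
CPM per sample of Pcna (left) and Pttg1 (right) in nmSC and fibro of C57BL/6 (n = 3) and NOD control (n = 2). For Pcna the C57BL/6 points start at 22.6 CPM in nmSC and 19.5 CPM in fibro, just above NOD control, whereas for Pttg1 C57BL/6 lies at 133 CPM or more and NOD control at 8.20 CPM or less.

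A second list of 50 cell cycle genes (cyclins and kinases of entry into the cycle, E2F factors, inhibitors, replication licensing and histone genes) was counted beside the members. With the knockout label, 11 of 38 tested passed in lymphoid cells (8 higher, 3 lower), 6 of 30 in CD4 (5 higher, 1 lower), 2 of 15 in myeloid cells (both higher), 3 of 15 in nmSC (all higher), 2 of 12 in mySC (1 each way) and 0 of 5 in EC, with 1 of the 5 at an unadjusted p under 0.05. Over all genes 19.4% passed in lymphoid cells, 10.8% in CD4, 16.4% in myeloid cells, 3.9% in nmSC, 11.4% in mySC and 2.6% in EC. DESeq2 called 0 genes of the list in lymphoid cells, 1 in CD4, 1 in myeloid cells, 3 in nmSC, 0 in mySC and 0 in EC. Over all genes it called 229, 177, 294, 53, 70 and 11 in the same order. Cks1b, a Cdk-binding subunit, was at 18.6, 19.0 and 24.3 CPM in lymphoid cells with the label against 0 and 49.99 CPM (-1.45 ± 0.33, edgeR adjusted p = 2.23e-04), again between the controls. Without NOD control 2, where the control left held no UMI, it did not pass (adjusted p = 0.64). Pttg1, which encodes securin, was at 76.3, 93.4 and 74.1 CPM against 0 and 29.8 CPM (1.27 ± 0.30, adjusted p = 4.44e-04). H2afz, a histone variant, was at 988, 1063 and 1021 CPM against 350 and 463 CPM (1.16 ± 0.31, adjusted p = 0.00225). Tob1, an antiproliferative gene of resting T cells, was at 147.9, 160.3 and 136.4 CPM against 105.1 and 63.8 CPM (0.96 ± 0.23, adjusted p = 6.79e-04). Without NOD control 2, Pttg1 (adjusted p = 0.186, against 0 UMIs) and Tob1 (0.619) did not pass, and H2afz did not pass without library 2 of the knockout label (1.17, 0.0512).

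In nerve cells 5 tests of the second list passed, 3 in nmSC and 2 in mySC, where 3.9% and 11.4% of all genes passed. Cdkn1a (p21), which blocks cyclin-dependent kinases, was at 344, 555 and 499 CPM in nmSC with the knockout label against 164 and 157 CPM in NOD control (1.51 ± 0.24, edgeR adjusted p = 0.00574), with no overlap. In mySC it was at 390, 228 and 299 CPM against 382 and 855 CPM (-1.50 ± 0.33, adjusted p = 0.00397), where the groups overlapped. Cdkn2a, the locus of p16 and p19ARF, was at 253, 290 and 364 CPM in nmSC against 97.8 and 101.5 CPM (1.56 ± 0.26, adjusted p = 0.0065), with no overlap. Groups did not overlap for 740 of all 2101 genes tested in nmSC. The nmSC calls did not hold without library 2 of the knockout label for Cdkn1a (1.33, adjusted p = 0.118), nor without library 1, 2 or 3 for Cdkn2a (adjusted p = 0.0707, 0.1 and 0.0542). The mySC call did not hold without NOD control 2 (-0.07, 0.967), without library 3 of the knockout label (-1.44, 0.132) or with DESeq2 (-1.31, 0.277). Btg1 and Ccnd3 in nerve cells, and Cdkn2c in lymphoid cells, fall outside the naming rule and were named after their values were seen. Btg1, an antiproliferative gene, was at 283.6, 406 and 351 CPM in nmSC with the label against 175.5 and 133 CPM (1.15 ± 0.25, adjusted p = 0.0277), and did not pass without library 1, 2 or 3 of the label (0.163, 0.266 and 0.13). Ccnd3, a D-type cyclin, was at 176, 159.9 and 272.7 CPM in mySC against 0 and 70.2 CPM (1.33 ± 0.41, adjusted p = 0.0399), and did not pass without NOD control 2 (0.218) or with DESeq2 (0.701). Without library 1 or 3 of the label Ccnd3 was below the filter. In lymphoid cells the inhibitors Cdkn2a (2.37 ± 0.85, adjusted p = 0.0327) and Cdkn2c (1.35 ± 0.43, 0.0152) passed too. They are among 11 genes of the list that passed there (8 higher, 3 lower), not all of which are named. Cdkn2a did not pass without library 1 (0.0549) or 3 (0.0799) of the label, Cdkn2c not without library 3 (0.0724), and neither without NOD control 2 (0.665 and 0.504) or without BC (0.153 and 0.312). T cell markers summed to 453 CPM in nmSC with the label and 51.1 CPM in NOD control, and to 549 and 87.9 CPM in mySC. Their part in these results was not tested.

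Between strains, Pttg1 was the gene of the second list that passed. It was at 218.9, 147.2 and 158.5 CPM in nmSC of C57BL/6 and at 2.51 CPM (2 UMIs) and 4.98 CPM (5 UMIs) in NOD control (log2 change -5.54 ± 0.46, edgeR adjusted p = 3.99e-07). In fibro it was at 142, 133 and 175 CPM against 0 and 8.20 CPM (3 UMIs) (-5.10 ± 0.60, adjusted p = 1.68e-04), and in EC at 187, 209 and 217 CPM against 0 UMIs in both controls (adjusted p = 0.00354). In EC it did not pass without NOD control 2 (0.314). It was the only one of 28 tested genes of the list to pass in nmSC, of 20 in fibro and of 11 in EC, and 0 of 17 passed in lymphoid cells and 0 of 12 in myeloid cells, with 2 and 0 at an unadjusted p under 0.05 and 0 by DESeq2. Over all genes 2.28% passed in nmSC, 1.82% in fibro, 1.96% in EC, 1.79% in lymphoid and 1.3% in myeloid cells. Over all annotated cells Pttg1 was at 137, 151 and 125 CPM in C57BL/6 libraries, and at 2.46, 17.6 and 9.95 CPM in NOD control 1, 2-1 and 2-2. In the libraries labelled Icam1 knockout it was at 71.3, 78.0 and 60.5 CPM over all cells, with 128, 128 and 119 CPM in CD8 and 30.4, 16.6 and 0 CPM in nmSC.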

How the data were processed

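Values deposited by the authors are raw UMI counts of genes by barcode, beside a library number and a cell type name for each barcode. Cell Ranger 3.0.2, mm10 and Rnor_6.0 are named in the submitters' processing notes. How the authors clustered cells and treated doublets or free RNA was not stated in the labels or headers. Named barcodes (15672 of 16050 mouse, 12360 of 12500 rat) were used. Total UMIs ran from 571042 to 6631004 per mouse library.

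For each sample and set of cell types, counts were added up (Python 3.11.15, pandas 2.3.3) and tested with edgeR 4.0.16 (TMM, filterByExpr, minimum count 10, threshold 0.05, sets with at least 20 cells in every sample), after a test on simulated data. Printed SEs are the log2 change divided by the root of the quasi-likelihood F. Shares used exact permutation over samples and Clopper-Pearson intervals, and thinning was to 500 UMIs, without the shallower cells. Alternatives were DESeq2 1.42.0, RLE factors, no filter, libraries 2-1 and 2-2 apart, Scrublet doublets removed, a replicate block and each sample left out. The block kept only samples whose number occurs in both groups. Lymphoid cells without BC, and libraries labelled Icam1 knockout summed as 1 sample, were added after seeing the data. Values per sample are printed for Mki67, Top2a and up to 8 tested members per set by smallest p, and for up to 6 genes of the second list per contrast. The members and lists were chosen with earlier results of these data known.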

Additional observations from a re-analysis of the deposited data

Results flagged for a closer look

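Barcodes without a cell type name, which no comparison used, held marked cells at a higher share than named ones in both NOD groups. In the libraries labelled Icam1 knockout 9 of 123 such barcodes had an Mki67 or Top2a UMI (7.32%, exact binomial 95% interval 3.40 to 13.4%), compared with 2.26% of named cells, and 10 of 123 held at least 3 mitotic members (8.13%, 3.97 to 14.4%), compared with 0.819%. In NOD control 4 of 53 had an Mki67 or Top2a UMI (7.55%, 2.09 to 18.2%), compared with 0.374% of named cells. C57BL/6 had 1 of 202 (0.495%, 0.0125 to 2.73%), compared with 0.385% of named cells. Rat had 3 of 140 (2.14%, 0.444 to 6.13%), compared with 0.494%. In C57BL/6 and rat the interval includes the share of named cells. No group had the 4 samples that a check for outlying samples needs.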

How the results depend on the processing

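Members called were 4 in lymphoid and 1 in CD4 cells. DESeq2, the replicate block, and a sum of all knockout-labelled libraries as 1 sample each called 0 in both. All genes called fell from 1743 to 229, 197 and 167 in lymphoid cells, and from 744 to 177, 127 and 78 in CD4, and without BC 960 passed. In the other sets, with the knockout label, all genes called changed from 576 to 294 with DESeq2 in myeloid cells, from 82 to 175 (no filter), 53 (DESeq2) and 169 (block) in nmSC, from 195 to 70 (DESeq2), 317 (2-1 and 2-2 apart) and 13 (block) in mySC, and from 14 to 31 (no filter), 32 (apart) and 30 (block) in EC. Between strains they changed from 42 to 72 (no filter) and 69 (apart) in lymphoid cells, from 22 to 11 (RLE factors), 81 (no filter) and 42 (apart) in myeloid cells, from 175 to 286 (no filter) and 83 (DESeq2) in nmSC, from 87 to 247 (no filter) in fibro and from 41 to 79 (no filter) in EC. Over samples left out they ran from 262 to 2524 in lymphoid cells and 235 to 1237 in CD4 with the knockout label, and from 48 to 174 in nmSC between strains. The block brought 1 member past the threshold in myeloid cells, as did no filter on low counts in nmSC and control libraries 2-1 and 2-2 as separate samples in mySC. DESeq2 called 0 in nmSC between strains. Counts over samples left out ran from 0 (without NOD control 2) to 6 (without NOD control 1) in lymphoid cells, 0 to 2 in CD4 (the same samples), and 0 to 1 in myeloid cells, nmSC, mySC and, between strains, nmSC. The cause was not tested.

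Over samples left out, log2 changes ran from -1.36 to 1.36 for Stmn1 in CD4, and in lymphoid cells from -0.81 to 2.12 for Stmn1, -1.47 to 7.61 for Birc5, -1.13 to 7.56 for Mcm5 and -1.57 to 7.66 for Cks1b, positive only without NOD control 2. The control then left, NOD control 1, held 0 UMIs of Birc5, Mcm5 and Cks1b and 1 of Stmn1, so these signs were fixed by it, the sizes depend on the prior count, and the lone sample is assumed to vary like the other group. Of 238 settings for named genes, 166 kept their call, 67 lost it and 5 reversed. Differences in share ran from 1.00 to 2.44 points in lymphoid cells, 0.842 to 2.26 in CD4 and 0.231 to 2.18 in myeloid cells over samples left out. Same-numbered samples correlated at -0.07 to 0.14 in their deviations from the group mean. The 2 controls deviate from their mean in exactly opposite ways, so this could not decide whether numbers are pairs. Numbers were not taken as pairs. No paired analysis was possible between strains because the groups share only number 1. Thinning to 1000 UMIs was not run in CD4, where NOD control 1 had no such cell. NOD control 1, with 49 lymphoid cells, limits every lymphoid comparison.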
